A study of Danio rerio with 4 samples.

Results

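Genes of the bone morphogenetic protein (BMP) pathway were examined in venous and lymphatic endothelial cells of zebrafish embryos mutant for tie1. Tie1 is a receptor tyrosine kinase. The genes were taken by symbol from a list of 10: the type I receptor acvrl1 (also called alk1), the co-receptor eng, the type II receptors bmpr2a and bmpr2b, the signal transducers smad1 and smad5, the inhibitory Smads smad6a and smad6b, and the target genes id1 and id3. Of these, 9 were among the 29027 genes in the tables, and eng was not analysed here.

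The mutant embryos, tie1 Homo, were homozygous tie1 mutants picked for having blood flow, and gave 2 libraries. Their siblings, tie1 WT/Het, were wild-type and heterozygous embryos pooled, and also gave 2 libraries, so carriers of 1 mutant copy are part of that group. All embryos carried the transgenes Tg(kdrl:EGFP) and Tg(lyve1:DsRed), and were taken at 47 hours post fertilization. Cells positive for both reporters were sorted from dissociated trunks and tails, and their RNA was amplified by a low-input method before sequencing. The tie1 allele, the number of embryos per library and whether libraries came from separate clutches are not given in the sources used here. The p-values therefore cannot be read as measuring spread between embryos or clutches. Those of limma, the main fit across all genes, rest almost wholly on the trend of variance with expression level. In sorted bulk RNA, fewer cells of a type and less RNA per cell cannot be told apart.

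As background, BMP ligands bring together type I and type II serine/threonine kinase receptors, and the activated type I receptor phosphorylates Smad1, Smad5 and Smad9, which enter the nucleus with Smad4. In endothelial cells the type I receptor is Alk1, with Endoglin as co-receptor, and circulating BMP9 and BMP10 are its ligands. The Id genes, which encode inhibitors of basic helix-loop-helix transcription factors, and the inhibitory Smad6 are among the best known genes switched on by this signal. Loss of acvrl1 in zebrafish is known for causing enlarged cranial vessels with arteriovenous shunts.

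The libraries differed before any member was compared. A set of 314 odorant, taste and other chemosensory receptor genes and lens crystallin genes, taken as unexpressed in endothelium, had a median of 8.41 and 11.1 TPM, a measure of transcript abundance scaled by gene length and library, in tie1 Homo libraries 1 and 2, against 2.26 and 3.66 TPM in tie1 WT/Het libraries 1 and 2. The 95th percentile of this set is called the background limit of a library: 13.2 and 18.7 TPM in tie1 Homo, against 3.93 and 6.36 TPM in tie1 WT/Het. Above it lay 5152 and 3111 genes in tie1 Homo, against 10004 and 9147 in tie1 WT/Het. Across the 28301 genes tested, the median log2 fold change of TPM + 1 was 1.17, so most genes, and above all weak ones, read higher in tie1 Homo. TPM keeps no record of read depth, which is unknown for all 4 libraries. The targeted gene tie1 itself had 16.7 and 10.2 TPM in tie1 Homo, against 61.0 and 31.0 TPM in tie1 WT/Het, a log2 fold change of -1.66 (SE 0.78, adjusted p = 0.0605 in limma). Its tie1 Homo values were 1.26 and 0.545 times the background limit. After the libraries were rescaled to other endothelial marker genes, the tie1 groups overlapped, at 23.9 and 23.7 in tie1 Homo, against 29.6 and 19.2 in tie1 WT/Het.

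Of the 21 endothelial markers, 12 and 10 were above the background limit in the tie1 Homo libraries, against 20 and 19 in the tie1 WT/Het libraries, so endothelial genes were detected in each. Their summed level was 2605 and 784 TPM in tie1 Homo, against 7451 and 5471 TPM in tie1 WT/Het. Markers of other cells were summed as well. The 10 erythroid markers summed to 3213 and 965 TPM in tie1 Homo, against 7339 and 6606 TPM in tie1 WT/Het, and the 15 skeletal muscle markers to 291 and 431 TPM, against 604 and 1448 TPM. The 9 myeloid markers summed to 839 and 332 TPM in tie1 Homo, against 698 and 645 TPM in tie1 WT/Het. The marker mfap4 made up most of the mutant sum, at 680 and 233 TPM, against 180 and 137 TPM in tie1 WT/Het. The marker lyz went the other way, at 35.9 and 21.8 TPM in tie1 Homo, against 344 and 319 TPM in tie1 WT/Het. Of the 9, limma called 3 lower and 1 higher (4.43% and 44.6% of all genes). The 10 mural and mesenchymal markers summed to 160 and 141 TPM in tie1 Homo, against 211 and 191 TPM in tie1 WT/Het. The 9 neural markers summed to 84.7 and 110 TPM in tie1 Homo, against 37.9 and 61.0 TPM in tie1 WT/Het, and the 9 epidermal markers to 204 and 136 TPM, against 579 and 139 TPM. Above the background limit in tie1 Homo were 6 and 7 erythroid, 7 and 8 muscle and 4 and 3 myeloid markers. For mural, neural and epidermal markers the counts were 3 and 1, 1 and 0, and 4 and 1. The neural sums in tie1 Homo thus rested mostly on values under the limit. In the same order, tie1 WT/Het had 8 and 8, 12 and 13, 7 and 7, 7 and 7, 3 and 3, and 6 and 4. No marker of these lists was at 0 in all 4 libraries, but genes taken as unexpressed had TPM above 0 too. The part of these cells in the results was not tested.

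Most of the BMP members read lower in the mutant cells. Of the 9 members, 6 (smad1, smad5, smad6a, smad6b, id1 and id3) had both tie1 Homo values below both tie1 WT/Het values, and both bmpr2 genes had them above, at levels near background. For acvrl1 the groups overlapped. Over all genes tested, 12.0% were separated downward in this way and 65.8% upward. The 6 separated members and acvrl1 were the 7 above the background limit in both sibling libraries, a choice that favours a lower mutant value, and of all 7350 genes tested that passed it 45.8% were separated downward. In the fit across all genes (limma on log2(TPM + 1), Benjamini-Hochberg adjusted over 28301 genes, threshold 0.05), id3 fell and bmpr2b rose, while the other 7 members did not pass. The background for these counts is 4.43% of all genes called lower and 44.6% called higher. Over the 9 members the median log2 fold change was -1.53, against 1.17 over all genes. Medians over all genes differed by level, from 1.31 at a mean TPM of 1 to 10 to -1.76 at 100 and over. The 21 endothelial markers had a median of -2.05, the 11 venous and lymphatic markers -1.56 and the 10 erythroid markers -1.69. Medians of the other marker lists ran from -0.52 (skeletal muscle) to 1.16 (neural).

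**Figure D1:**
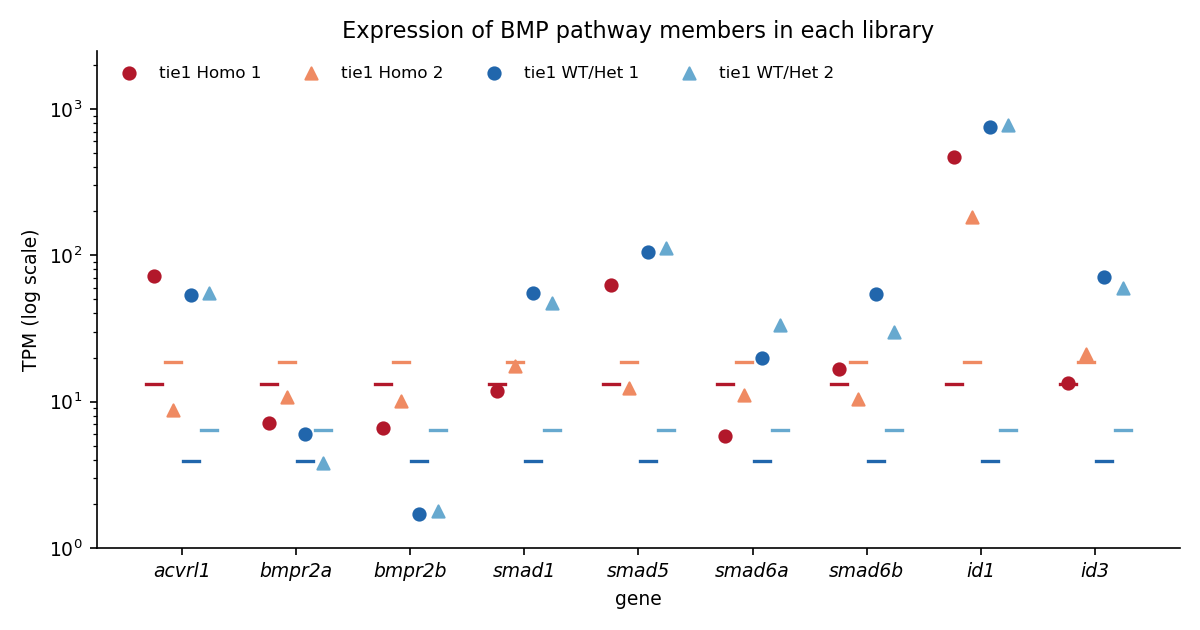
TPM (log axis) of the 9 members in each library, with tie1 Homo libraries in red and orange and tie1 WT/Het libraries in blue; the short bars mark the background limit of each library. In both tie1 WT/Het libraries 7 members lie above the limit, whereas in both tie1 Homo libraries only id1 and id3 do.

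The receptors come first in the pathway. Expression of acvrl1, the endothelial type I receptor, was 71.8 and 8.77 TPM in tie1 Homo, against 53.3 and 55.1 TPM in tie1 WT/Het. The sibling libraries were nearly equal, with a ratio of 1.03 between them, whereas the mutant libraries differed 8.19-fold and lay on both sides of the siblings. Mutant library 1 placed acvrl1 5.43 times above its background limit, and mutant library 2 placed it at 0.468 of its limit. Its log2 fold change came to -1.05 (SE 0.84, adjusted p = 0.271 in limma). Without tie1 Homo replicate 2 it was 0.40 and without tie1 Homo replicate 1 it was -2.50, so the sign rests on which mutant library is used.

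Both type II receptors were weak. The gene bmpr2a had 7.08 and 10.8 TPM in tie1 Homo, against 5.99 and 3.81 TPM in tie1 WT/Het, and exceeded the background limit only in tie1 WT/Het replicate 1. Its log2 fold change of 0.75 (SE 0.56, adjusted p = 0.233 in limma) was below the median of all genes. The paralogue bmpr2b had 6.54 and 10.1 TPM in tie1 Homo, against 1.69 and 1.79 TPM in tie1 WT/Het. It was called higher, with a log2 fold change of 1.74 (SE 0.54, adjusted p = 0.0144 in limma), which is 0.57 above the median of all genes and 0.43 above that of genes of like mean TPM. All 4 bmpr2b values were under the background limit, at between 0.282 and 0.538 of it, so the call was made at a level that unexpressed genes also have. It was lost without tie1 Homo replicate 1 (limma adjusted p = 0.0511), without tie1 Homo replicate 2 (0.271) and without tie1 WT/Het replicate 1 (0.0979). Of the 20346 genes whose mean TPM was 1 to 10, 84.3% had both tie1 Homo values above both tie1 WT/Het values, as both bmpr2 genes did.

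The receptor-activated Smads carry the signal to the nucleus. Expression of smad1 was 11.9 and 17.4 TPM in tie1 Homo, against 55.1 and 47.0 TPM in tie1 WT/Het. Both mutant values were below every sibling value and just under the background limit of their library, at 0.897 and 0.930 of it. Its log2 fold change came to -1.75 (SE 0.80), with a limma adjusted p of 0.0541 that narrowly missed the threshold.

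The second receptor-activated Smad, smad5, was the most abundant Smad in sibling cells. It had 62.5 and 12.3 TPM in tie1 Homo, against 104 and 113 TPM in tie1 WT/Het. The groups did not overlap, but the mutant libraries differed 5.08-fold, and only mutant library 1 was above its background limit. Its log2 fold change came to -1.91 (SE 0.88, adjusted p = 0.0583 in limma). Without tie1 Homo replicate 1 it was -3.04, and without tie1 Homo replicate 2 it was -0.79, each with 1 mutant library left.

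Within a library, the ratio of the 2 receptor-activated Smads does not depend on how libraries are scaled. The smad5 to smad1 ratio was 5.26 and 0.706 in tie1 Homo, against 1.89 and 2.40 in tie1 WT/Het. The mutant libraries thus lay on opposite sides of the siblings, with smad5 above smad1 in library 1 and below it in library 2. However, smad1 was under the background limit in both mutant libraries, at 0.897 and 0.930 of it. In mutant library 2 smad5 was under it too, at 0.656, so no difference between the groups is read from the mutant ratios. After the background median was subtracted, the ratios were 15.6 and 0.194 in tie1 Homo, against 1.93 and 2.51 in tie1 WT/Het.

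The inhibitory Smads block receptor-activated Smads and are themselves induced by BMP signals. Expression of smad6a was 5.82 and 11.1 TPM in tie1 Homo, against 19.8 and 33.6 TPM in tie1 WT/Het. Expression of smad6b was 16.8 and 10.4 TPM in tie1 Homo, against 54.2 and 29.7 TPM in tie1 WT/Het. For both genes every mutant value was below every sibling value, and 3 of the 4 mutant values fell short of the background limit, the exception being smad6b in library 1 at 1.27 times the limit. The log2 fold changes were -1.56 (SE 0.70, adjusted p = 0.0503 in limma) for smad6a and -1.53 (SE 0.77, adjusted p = 0.0796 in limma) for smad6b.

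The inhibitory pair lay below the median of genes of like level. Of the 5138 genes whose mean TPM was 10 to 30, 26.0% were separated downward, and the median log2 fold change was -0.01, so smad6a lay 1.55 and smad6b 1.52 below it. The targeted gene tie1, of the same level class, lay 1.65 below it. The mean TPM of smad6b (27.8) and tie1 (29.7) was close to the upper bound of 30, and that of smad6a was 17.6. In the next class, 30 to 100 TPM, the median was -1.36, so the distances of smad6b and tie1 depend on where the class ends. Summed over the pair, inhibitory Smad expression was 22.6 and 21.5 TPM in tie1 Homo, against 74.0 and 63.3 TPM in tie1 WT/Het. After the background median was subtracted it was 8.41 and 0.047 TPM in tie1 Homo, against 69.5 and 55.9 TPM in tie1 WT/Het, so little of the mutant sum was above background. The smad6b to smad6a ratio was 2.74 and 0.883 in tie1 WT/Het, and is not given for tie1 Homo, where 3 of the 4 values behind it were under the limit.

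The target gene id1 was the most abundant member in every library. It had 472 and 183 TPM in tie1 Homo, against 750 and 782 TPM in tie1 WT/Het. All 4 values were far above background, at 35.7 and 9.74 times the limit in tie1 Homo, against 191 and 123 times in tie1 WT/Het. The groups did not overlap and the log2 fold change was -1.38 (SE 0.94, adjusted p = 0.192 in limma). Without tie1 Homo replicate 1 it was -2.06, and without tie1 Homo replicate 2 it was -0.70. Each of these fits has 1 mutant library, and so no measure of spread among the mutants.

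The rank of id1 was near the top of each library, where a percentile can hardly show a change. Among all listed genes of the same library, id1 stood at percentile 99.6 and 99.5 in tie1 Homo, against 99.5 and 99.6 in tie1 WT/Het. After quantile normalization, which has the same limit at the top, the log2 fold change was 0.04 (SE 0.27, adjusted p = 0.968 in limma). It was -1.43 after background subtraction and -2.76 under median-of-ratios rescaling (limma adjusted p = 0.325 and 0.224). The latter also lowered the median over all genes, from 1.17 to 0.03. Of the 990 genes whose mean TPM was 100 and over, 81.6% were separated downward, and id1 lay 0.38 above the median log2 fold change of that class, which was -1.76.

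The other Id gene, id3, had 13.4 and 21.0 TPM in tie1 Homo, against 70.8 and 59.5 TPM in tie1 WT/Het. Both mutant values were far below both sibling values and only just above background, at 1.02 and 1.12 times the limit. The gene fell, with a log2 fold change of -1.89 (SE 0.82, adjusted p = 0.0465 in limma). The call was lost when any 1 library was left out, with adjusted p from 0.0752 to 0.229 in the limma fits, while the log2 fold change stayed between -2.19 and -1.58. Across the 16 alternative settings the id3 call was lost in 11. With a mean TPM of at least 5 required, smad6a was called lower in its place (limma adjusted p = 0.0496). Within the library id3 stood at percentile 82.6 and 91.4 in tie1 Homo, against 93.6 and 93.3 in tie1 WT/Het, so its rank was lower in both mutants.

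In the level class of id3, smad1, smad5 and acvrl1, a mean TPM of 30 to 100, 62.7% of 1827 genes were separated downward, and 3 of these 4 members were. The class median log2 fold change was -1.36. The departures of the members from it were -0.52 for id3, -0.39 for smad1, -0.55 for smad5 and 0.31 for acvrl1, all smaller than the SE of the gene.

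**Figure D2:**
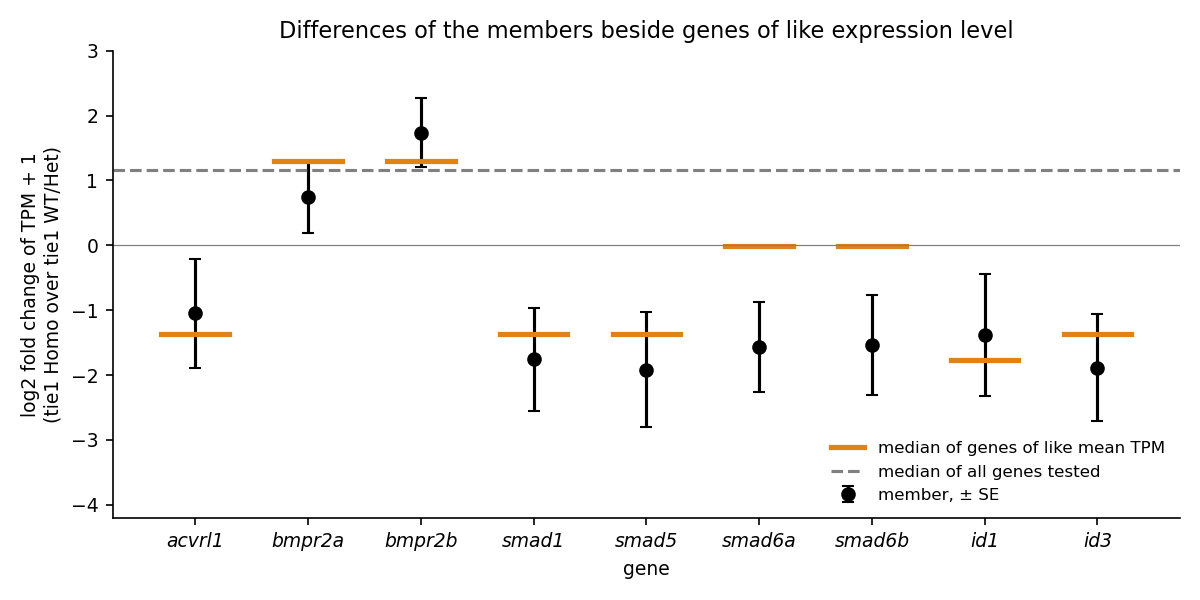
Log2 fold change of TPM + 1 (tie1 Homo over tie1 WT/Het, ± SE) of each member in black, with the median of genes of like mean TPM as an orange bar and the median of all genes (1.17) as a dashed line. The genes smad6a and smad6b lie furthest below the median of their level class, by 1.55 and 1.52. The mean of smad6b, 27.8 TPM, is close to the class bound of 30, above which the class median is -1.36.

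The order of the members by level, which TPM allows because it is per length, was clear at the top of the sibling cells. In tie1 Homo the order of mean TPM was id1 (327), acvrl1 (40.3), smad5 (37.4), id3 (17.2), smad1 (14.7), smad6b (13.6), bmpr2a (8.93), smad6a (8.47) and bmpr2b (8.32). Only id1 and its neighbour did not overlap there. In both tie1 Homo libraries smad1, smad6a, bmpr2a and bmpr2b were under the background limit, so no order is read among them. In tie1 WT/Het it was id1 (766), smad5 (109), id3 (65.2), acvrl1 (54.2), smad1 (51.1), smad6b (41.9), smad6a (26.7), bmpr2a (4.90) and bmpr2b (1.74). Among the siblings, acvrl1 and smad1, smad1 and smad6b, and smad6b and smad6a overlapped, and the other neighbours did not. At the bottom, bmpr2b was under the background limit in both sibling libraries and bmpr2a in tie1 WT/Het replicate 2, so their order lies at background level.

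**Figure D3:**
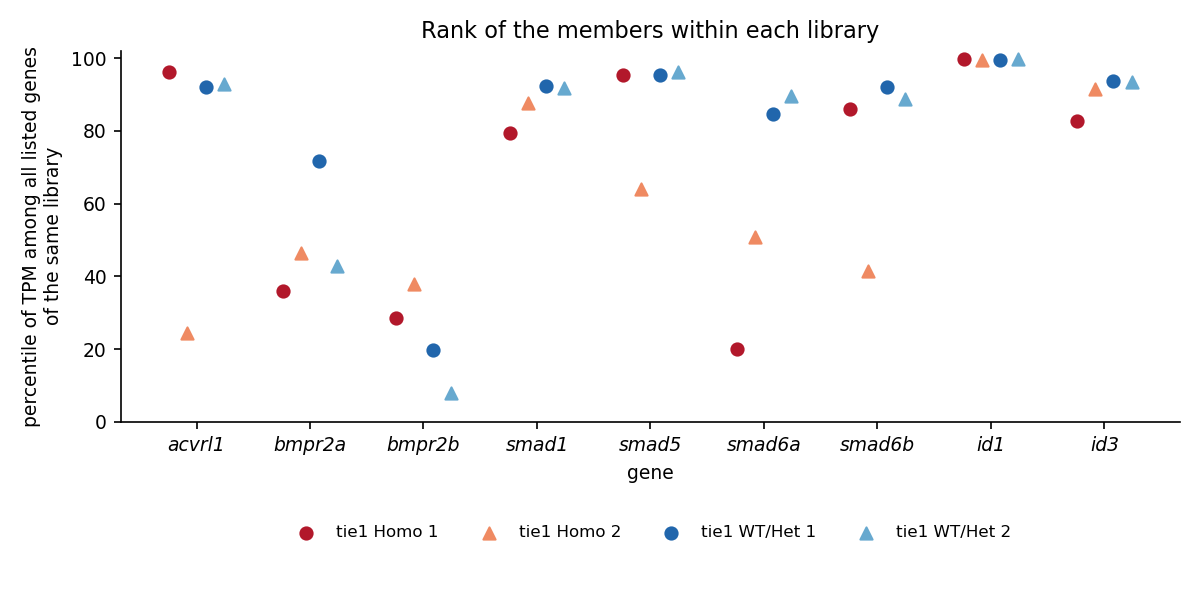
Percentile of each member's TPM among all 29027 genes of the same library, a measure that no rescaling of a library changes; tie1 Homo in red and orange, tie1 WT/Het in blue. The gene id1 is at percentile 99.5 or 99.6, near the top of the scale, in all 4 libraries, while acvrl1 is at 96.1 in tie1 Homo replicate 1 and at 24.5 in tie1 Homo replicate 2.

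Because endothelial genes as a whole were lower in the mutant libraries, the members were also read against them. The 9 members together summed to 668 and 284 TPM in tie1 Homo, against 1115 and 1126 TPM in tie1 WT/Het. As a share of the summed endothelial markers this was 25.6% and 36.3% in tie1 Homo, against 15.0% and 20.6% in tie1 WT/Het. The sum was thus lower in TPM and higher relative to the endothelial markers, with no overlap on either scale. When the libraries were rescaled to the endothelial markers, a related scale, 85.4% of all genes tested were separated upward and 1.86% downward. A higher reading relative to these markers was therefore common to most genes. The Id genes, above all id1, made up most of that share, at 18.6% and 26.0% in tie1 Homo, against 11.0% and 15.4% in tie1 WT/Het. For the receptor-activated Smads the share was 2.85% and 3.79% in tie1 Homo, against 2.14% and 2.92% in tie1 WT/Het, and for the inhibitory Smads 0.869% and 2.74%, against 0.993% and 1.16%. Both of these Smad shares overlapped between the groups. The receptor share was 3.28% and 3.78% in tie1 Homo, against 0.818% and 1.11% in tie1 WT/Het. After background subtraction the receptor sum in mutant library 2 was 0 TPM, so its share there rested on background. The marker plvapb was the largest part of the marker sum in every library, at 806 and 202 TPM in tie1 Homo. In tie1 WT/Het it had 2589 and 1444 TPM, so the shares lean on this marker.

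The ratio to kdrl, an endothelial receptor gene whose promoter drives the EGFP reporter, separated the groups for id1 and acvrl1 but not for id3. The id1 to kdrl ratio was 1.46 and 3.87 in tie1 Homo, against 0.788 and 0.775 in tie1 WT/Het, and all values behind it were above background. The acvrl1 to kdrl ratio was 0.223 and 0.186 in tie1 Homo, against 0.0560 and 0.0547 in tie1 WT/Het. After background subtraction the id1 ratio was 1.48 and 4.75 in tie1 Homo, against 0.787 and 0.775 in tie1 WT/Het. The acvrl1 ratio then was 0.202 and 0 in tie1 Homo, against 0.0538 and 0.0512 in tie1 WT/Het, so its separation did not hold. The id3 to kdrl ratio was 0.0417 and 0.445 in tie1 Homo, against 0.0744 and 0.0590 in tie1 WT/Het. The share of all genes with a separated ratio to kdrl was not computed.

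The result for kdrl did not extend to most endothelial genes. There were 9 endothelial markers above the background limit in all 4 libraries. The ratio of id1 was separated upward against 3 of them (kdrl, egfl7 and plvapb, listed under its synonym vsg1) and overlapped for 6, cdh5 and pecam1 included. The id1 to cdh5 ratio, for example, was 13.0 and 5.90 in tie1 Homo, against 10.9 and 13.6 in tie1 WT/Het. For id3 the ratio was separated downward against 2 markers, cdh5 and she, and overlapped for 7. Against the junction gene cdh5 it was 0.371 and 0.679 in tie1 Homo, against 1.03 and 1.03 in tie1 WT/Het. The id1 to id3 ratio was 35.1 and 8.69 in tie1 Homo, against 10.6 and 13.1 in tie1 WT/Het, with the mutant values on both sides of the siblings. After background subtraction it was 92.2 and 17.3 in tie1 Homo, against 10.9 and 13.9 in tie1 WT/Het, so the groups no longer overlapped; id3 itself was only just above background in tie1 Homo.

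**Figure D4:**
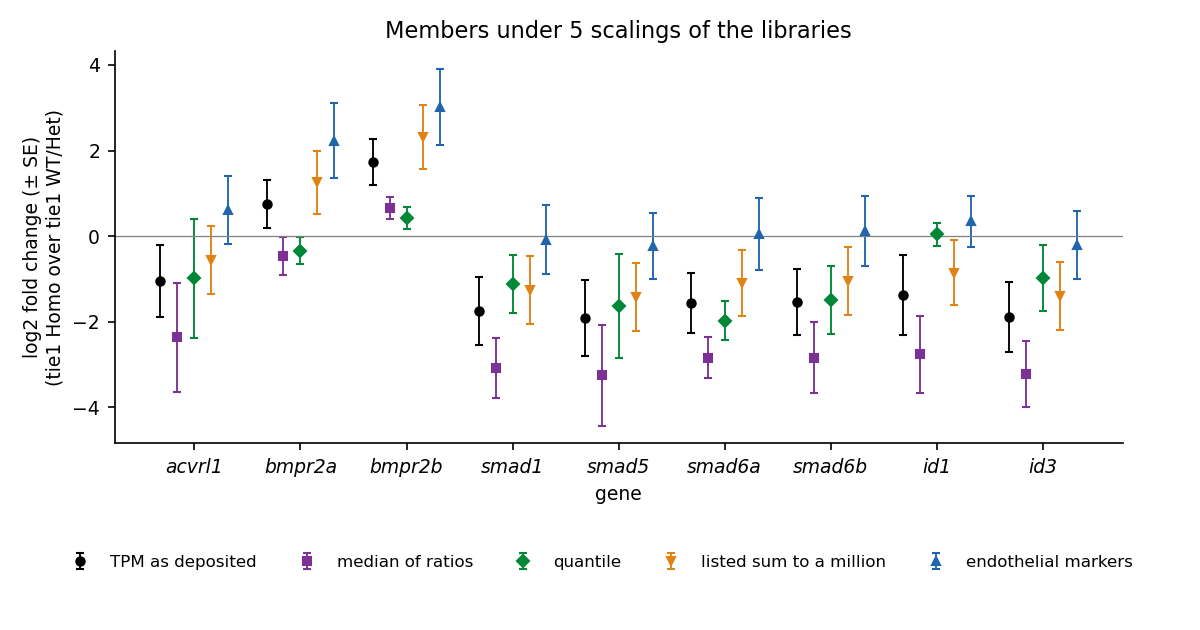
Log2 fold change (± SE, tie1 Homo over tie1 WT/Het) of each member under TPM as deposited and 4 rescalings of the libraries. The 6 separated members lie at -3.25 to -2.76 under median-of-ratios rescaling and at -0.23 to 0.35 when the libraries are rescaled to the endothelial markers. The median of all genes moves too, from 1.17 as deposited to 0.03 and 2.54 under these rescalings.

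The remaining genes of the pathway were taken from 5 lists, and 1 list was made for the related TGF-beta arm. Of 17 BMP ligand genes, 6 were called higher and 0 lower in limma (background 44.6% and 4.43%), but none of the 6 was above the background limit in both libraries of a group. Of the genes above it in both sibling libraries, which favours lower calls, 16.8% were called lower and 2.11% higher. The ligands bmp10 and gdf2 (the gene of BMP9) were among the 14 that were not. The 3 that were, all through the sibling libraries, were bmp2b, bmp3 and gdf6a, with log2 fold changes of -0.72, -0.33 and -0.62. None of these 3 passed the test (limma adjusted p from 0.311 to 0.660).

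Among 12 other receptor genes, 4 were called higher and 0 lower, against 44.6% and 4.43% of all genes. The 1 called gene above background was bmpr1bb, a BMP type I receptor. It had 21.0 and 19.2 TPM in tie1 Homo, against 5.85 and 5.61 TPM in tie1 WT/Het. Both mutant values were above their limits, at 1.59 and 1.02 times, and 1 of the 2 sibling values was. The gene thus counted as above background through the mutant libraries alone, which favours a higher call. The share of such genes called higher was not computed. The log2 fold change was 1.65 (SE 0.64, adjusted p = 0.0308 in limma). The call was lost whichever library was left out (limma adjusted p from 0.0853 to 0.277). Its paralogue bmpr1ba had 29.4 and 12.4 TPM in tie1 Homo, against 37.3 and 32.6 TPM in tie1 WT/Het, and did not pass (log2 fold change -0.83, limma adjusted p = 0.356). The other 5 above background (bmpr1aa, bmpr1ab, acvr1l, acvr2aa and the co-receptor rgma) had log2 fold changes from 0.10 to 0.65 and did not pass.

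Of 8 other Smad and partner genes, 2 were called higher and 0 lower (44.6% and 4.43% of all genes), neither above background in both libraries of a group. The third receptor-activated Smad, smad9, had 10.5 and 14.1 TPM in tie1 Homo, against 23.2 and 29.0 TPM in tie1 WT/Het (log2 fold change -1.03, SE 0.73, adjusted p = 0.211 in limma). Its groups did not overlap, as for smad1 and smad5, and neither mutant value reached the background limit. The inhibitory smad7 had 18.5 and 18.5 TPM in tie1 Homo, against 29.0 and 25.3 TPM in tie1 WT/Het (log2 fold change -0.53, limma adjusted p = 0.552). The ubiquitin ligase gene smurf1 and the RING-finger gene rnf11b had log2 fold changes of -0.0030 and -0.71 and did not pass. Of the 4 genes of this list above background in both sibling libraries, 3 (smad9, smad7 and rnf11b) were separated downward. Among all genes above background there, 45.8% were.

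Of 18 extracellular antagonists and modulators, 9 were called higher and 0 lower (44.6% and 4.43% of all genes), with none of the 9 above background in both libraries of a group. The pseudoreceptor genes bambia and bambib, which dampen BMP signals, were separated downward. For bambia the values were 50.4 and 15.9 TPM in tie1 Homo, against 79.8 and 79.5 TPM in tie1 WT/Het (log2 fold change -1.45, SE 0.87, adjusted p = 0.139 in limma). For bambib they were 5.94 and 9.51 TPM in tie1 Homo, against 27.4 and 19.1 TPM in tie1 WT/Het (log2 fold change -1.48, SE 0.68, adjusted p = 0.0560 in limma). The secreted modulators bmper, fstl1a and fstl1b had log2 fold changes of 1.00, -0.20 and -1.49 and did not pass. Of the 5 genes of this list above background in both sibling libraries, 3 (bambia, bambib and fstl1b) were separated downward and 1 (bmper) upward. Among all genes above background there, 45.8% were separated downward and 13.7% upward. In these 4 lists, where limma called 0 genes lower, bambib was the only gene with an unadjusted p under 0.05 in that direction (1 of 18 in its list, and 0 in each of the other lists).

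Of 14 other BMP-responsive genes, 2 were called higher, neither above background in both libraries of a group, and 1 lower (44.6% and 4.43% of all genes). The gene that fell was id2b, a further Id gene, with 7.54 and 8.02 TPM in tie1 Homo, against 49.9 and 39.3 TPM in tie1 WT/Het (log2 fold change -2.37, SE 0.74, adjusted p = 0.0149 in limma). Neither mutant value reached the background limit of its library. The id2b call was lost without tie1 Homo replicate 2 (limma adjusted p = 0.0614) and without tie1 WT/Het replicate 1 (limma adjusted p = 0.120). Its paralogue id2a had 36.4 and 16.3 TPM in tie1 Homo, against 40.7 and 36.5 TPM in tie1 WT/Het, and did not pass (log2 fold change -0.64, limma adjusted p = 0.497). The Id genes id1, id2a, id2b and id3, all above background in both sibling libraries, had both mutant values below both sibling values, narrowly so for id2a, with id2b and id3 past the threshold; 45.8% of all genes above background there did the same. The further Id gene id4, named after its values were seen and not above background in both libraries of either group, overlapped, with 33.8 and 10.3 TPM in tie1 Homo, against 2.47 and 43.0 TPM in tie1 WT/Het. With rescaling to the endothelial markers the log2 fold changes of id1 and id2a turned positive, at 0.35 and 1.04. The transcription factor genes atoh8, msx2b, msx1b, gata2a and hey2, and ltbp3, which encodes a latent TGF-beta binding protein, had log2 fold changes from -1.57 to 0.42 and did not pass.

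In the TGF-beta arm, 1 of 13 genes was called higher and 3 were called lower (44.6% and 4.43% of all genes). All 3 were above background in both sibling libraries, where 16.8% of genes were called lower. The type II receptor gene tgfbr2b, listed as tgfbr2, had 67.2 and 14.4 TPM in tie1 Homo, against 152 and 120 TPM in tie1 WT/Het (log2 fold change -2.07, SE 0.90, adjusted p = 0.0461 in limma). The ligand genes tgfb1b and tgfb3 fell, with log2 fold changes of -2.18 and -1.62 (limma adjusted p = 0.0284 and 0.0452). Expression of tgfb1b was 37.9 and 6.75 TPM in tie1 Homo, against 77.7 and 78.0 TPM in tie1 WT/Het. For tgfb3 it was 6.70 and 10.1 TPM, against 34.2 and 22.0 TPM. In tie1 Homo, tgfb3 was under the background limit in both libraries, at 0.506 and 0.539 of it. In tie1 Homo library 2, tgfb1b and tgfbr2b were under it too, at 0.360 and 0.768. Each of these 3 calls was lost without tie1 WT/Het replicate 1 (limma adjusted p from 0.181 to 0.291). Without tie1 Homo replicate 2 the log2 fold changes of tgfbr2b and tgfb1b came to -0.99 and -1.02 (limma adjusted p = 0.320 and 0.333), and the tgfb3 call was also lost (limma adjusted p = 0.221). Without tie1 WT/Het replicate 2 the calls of tgfbr2b and tgfb1b were lost (limma adjusted p = 0.151 and 0.0784), as was that of tgfb3 without tie1 Homo replicate 1 (limma adjusted p = 0.161). The ligand genes tgfb1a and tgfb2 and the transducer smad3a had log2 fold changes from -0.07 to 0.24 and did not pass. The TGF-beta list had a median log2 fold change of 0.24, against -1.53 for the 9 BMP members and 1.17 over all genes. These lists differ in level, with 6 of the 13 TGF-beta genes and 7 of the 9 members above background in both libraries of a group. Class medians ran from 1.31 at a mean TPM of 1 to 10 to -1.76 at 100 and over, so the list medians do not compare like with like.

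**Figure D5:**
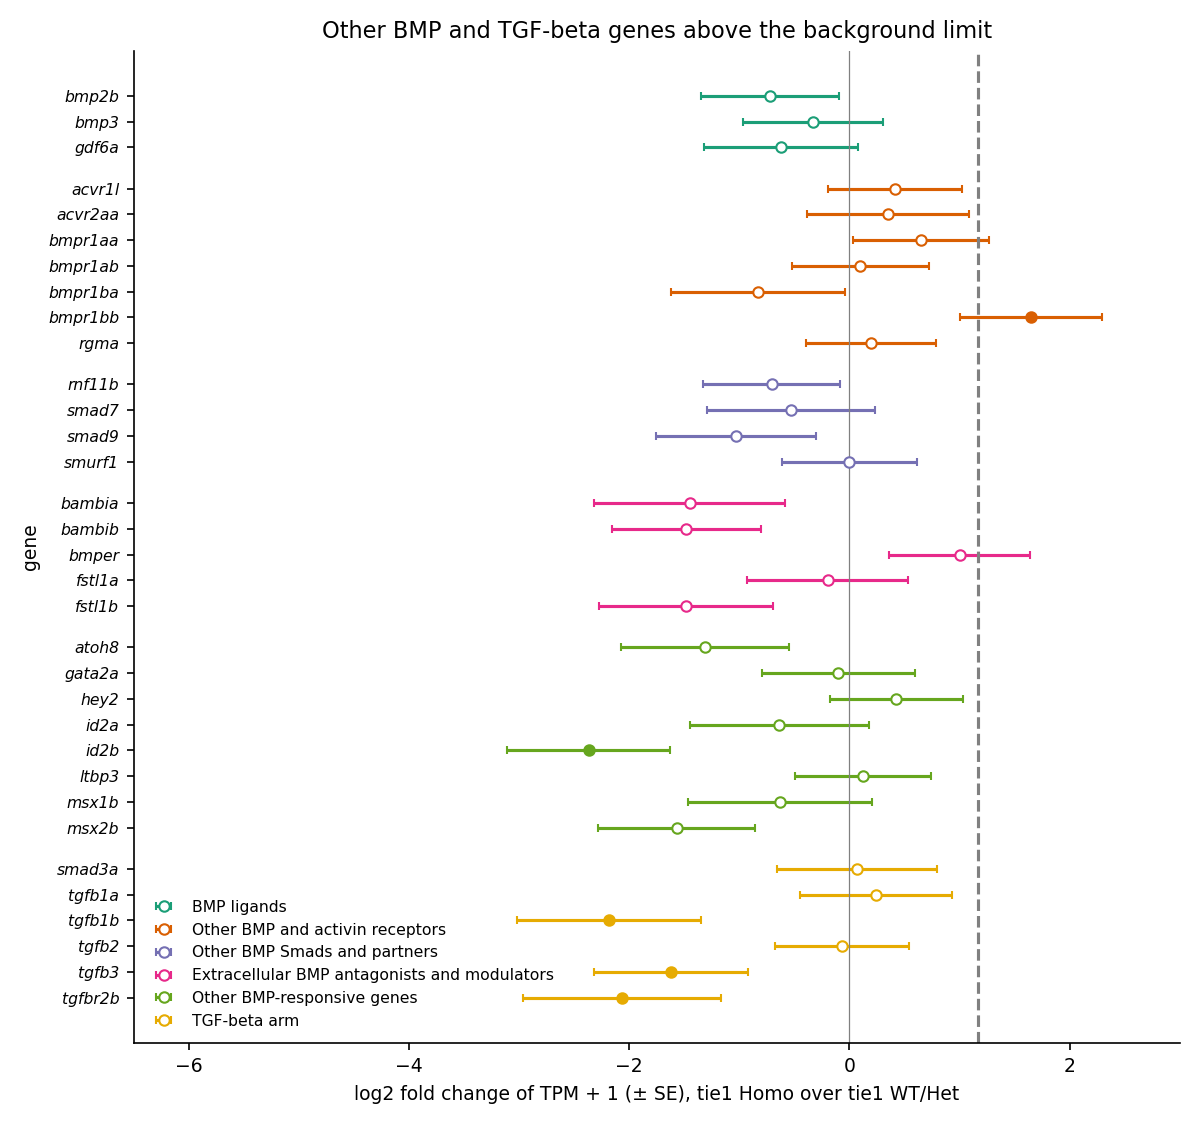
Log2 fold change of TPM + 1 (± SE, tie1 Homo over tie1 WT/Het) of the 33 other pathway genes above the background limit in both libraries of at least 1 group, coloured by list, with filled points past the limma threshold and the median of all genes dashed. Filled points are bmpr1bb on the higher side and id2b, tgfb1b, tgfb3 and tgfbr2b on the lower side. The gene bmpr1bb passed the limit through tie1 Homo and the other filled genes through tie1 WT/Het, a choice that favours these directions.

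For the 8 members whose groups did not overlap, the two-sided exact permutation p of the difference in TPM was 0.333, the smallest that 2 libraries against 2 can give. In the main fit the limma p-values rest almost wholly on the trend of variance with expression level over all genes. The spread of the gene itself hardly enters there. After median-of-ratios rescaling, quantile normalization or background subtraction, 0 genes were called in either direction. The prior degrees of freedom, the weight given to the trend, were 2.96, 2.98 and 3.45 in these fits, so the spread of each gene counted for more. The fit with a replicate block, on TPM as deposited, had 3.18 prior degrees of freedom and called 15263 genes higher and 666 lower. Whether the scaling or the weight of the trend lost the calls was not tested. In the limma fits with 0 genes called, 9, 9 and 7 members were tested. Of them, 6, 1 and 4 had an unadjusted p under 0.05 in the lower direction, and 1, 0 and 0 in the higher. Over all genes, 4110 of 28283, 1828 of 28301 and 2722 of 14256 were lower in this way, and 1218, 1335 and 279 higher.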

How the data were processed

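Each of the 4 libraries had 1 table of TPM, a unit named by the authors in the file headers. Per the submitters' processing notes the tools were Trim Galore 0.6.6, cutadapt 2.8, HISAT2 2.2.1, SAMtools 1.7 and StringTie 2.1.4, with build GRCz11; annotation and filters are not given in the sources used here. The deposited TPM summed to between 481065 and 813042 per library. Depth is unknown, so no counting interval was computed. Groups came from the sample titles.

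limma 3.58.1 (R 4.3.3) was fitted to log2(TPM + 1) of genes averaging at least 1 TPM, with group as the only term, eBayes with an intensity trend, two-sided tests and Benjamini-Hochberg adjustment (threshold 0.05). All 9 listed members passed this filter. Fold changes on this scale understate changes of weak genes. The fit recovered known changes in a self-test of the code. Whether it does so for libraries that differ as these do was not tested. Exact permutation used scipy 1.17.1. Medians of like level used classes bounded at 10, 30 and 100 TPM.

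All members were named. Of the other lists, genes above the background limit in both libraries of a group were named. A gene of these lists is not reported here, and the list counts leave it out. Absent symbols were matched through unique synonyms. Members and lists were chosen with earlier results of these data known. No coordinates are given, since the annotation at hand is of another build.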

Additional observations from a re-analysis of the deposited data

How the results depend on the processing

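Genes called higher and lower over all genes numbered 12618 and 1255. They were 0 and 0 under median-of-ratios rescaling (limma unadjusted p under 0.05: 1218 higher, 4110 lower), quantile normalization (1335, 1828) and background subtraction (279, 2722). They were 21281 and 88 with rescaling to the endothelial markers and 8103 and 1986 with no intensity trend. Lower calls were 718 with the listed sum set to 1000000. With the replicate block they were 666, and members called numbered 1 higher and 1 lower, the lower one being smad6a (limma adjusted p = 0.0467) in place of id3 (0.0784), and tgfb1b, tgfb3 and tgfbr2b also lost their calls (0.0649 to 0.109); the labels do not say that numbers mark a shared clutch, and same-numbered deviations correlated at r = 0.13 across genes. Leaving out 1 library, with the lone library assumed to vary like the others, gave 521 to 14006 higher and 66 to 1762 lower calls.

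Members called higher and lower numbered 1 and 1. With a mean TPM of at least 5 they also numbered 1 and 1, but the lower one was smad6a (limma adjusted p = 0.0496) in place of id3. Higher calls were 0 under median of ratios, quantile normalization and background subtraction, 2 with endothelial rescaling, and 0 to 1 on leaving out a library. Lower calls were 0 under those 3 settings, the sum to 1000000 and endothelial rescaling, 2 with a pseudocount of 5, no filter or robust moderation, 5 with no trend, and 0 to 3 on leaving out a library. Members separated lower numbered 6 in the main fit, 7 under median of ratios, 4 under quantile normalization and 0 with endothelial rescaling. After background subtraction they numbered 6 (7 members tested), and on leaving out a library 6 to 7. Over all genes 12.0% were separated lower as deposited, 26.9% under median of ratios and 20.3% under quantile normalization. The share was 1.86% with endothelial rescaling, 40.9% after background subtraction and 15.9% to 17.1% on leaving out a library. Members separated higher numbered 2, 1 under median of ratios and quantile normalization, 0 after background subtraction (7 members tested), and 2 to 3 on leaving out a library. Over all genes the upward share was 65.8% as deposited, 27.8% under median of ratios, 23.5% under quantile normalization and 14.5% after background subtraction.

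Signs turned for acvrl1 (0.62 with endothelial rescaling, -2.50 to 0.40 on leaving out a library), bmpr2a (-0.46 median of ratios, -0.34 quantile), id1 (0.041 quantile, 0.35 endothelial), smad6a (0.058 endothelial) and smad6b (0.13 endothelial). The cause was not tested. For smad1, smad5, id3 and bmpr2b the sign was kept in every setting that tested them. The sign of tie1 was kept too, with log2 fold changes from -3.76 to -0.0040.

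For the 33 other pathway genes above background, signs turned in 4 rescalings and after background subtraction. Log2 fold changes turned positive with endothelial rescaling for bmp2b (0.85), bmp3 (1.25), gdf6a (0.99), bmpr1ba (0.83), smad9 (0.61), smad7 (1.13), smurf1 (1.55), rnf11b (0.87), fstl1a (1.44), fstl1b (0.18), bambia (0.24), bambib (0.13), id2a (1.04), atoh8 (0.35), msx1b (1.04), msx2b (0.061), gata2a (1.52), tgfb2 (1.49) and tgfb3 (0.0071). With the sum set to 1000000 they turned for bmp3 (0.15), smurf1 (0.49), fstl1a (0.30), gata2a (0.40) and tgfb2 (0.42). Under median of ratios they turned negative for bmpr1aa (-0.59), bmpr1ab (-1.15), acvr1l (-0.82), acvr2aa (-0.96), rgma (-1.02), bmper (-0.26), hey2 (-0.82), ltbp3 (-1.13), tgfb1a (-1.05) and smad3a (-1.23). Under quantile normalization they turned for bmpr1aa (-0.059), bmpr1ab (-0.71), acvr1l (-0.50), rgma (-0.82), smad7 (0.065), fstl1a (0.064), hey2 (-0.33), gata2a (0.044), ltbp3 (-0.69) and tgfb1a (-0.046). After background subtraction they turned for bmpr1aa (-1.14), bmpr1ab (-2.40), acvr1l (-1.63), acvr2aa (-0.32), rgma (-2.44), hey2 (-1.53), ltbp3 (-2.45), tgfb1a (-1.03) and smad3a (-0.74). On leaving out a library the sign turned for bmpr1ab (-0.15 to 0.35), acvr1l (-0.20 to 1.03), acvr2aa (-0.14 to 0.83), rgma (-0.37 to 0.76), smurf1 (-0.20 to 0.20), msx1b (-1.67 to 0.40), gata2a (-0.23 to 0.027), ltbp3 (-0.049 to 0.29), tgfb1a (-0.042 to 0.52), tgfb2 (-0.53 to 0.39) and smad3a (-0.46 to 0.61). The cause was not tested.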
